A study of Mus musculus with 19 samples.

Results

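9 genes that carry, bind, make and remove retinoids were followed in mouse endometrium, out of the 49089 genes in the deposited count table. They are Ttr, Rbp4, Stra6, Crabp2, Rdh10, Aldh1a1, Aldh1a2, Aldh1a3 and Cyp26a1, matched to the table through their Ensembl identifiers. They were chosen by the role of their proteins, with earlier results of these data known. The shares of them called below are therefore descriptions. All 9 were found, and 8 passed the minimum level for testing (3 CPM, counts scaled to the size of each library, in 3 of the 19 libraries), with Rbp4 below it. All females were wild-type C57Bl/6 mice, and endometrium scraped from the myometrium was used as pooled samples. CONT holds 3 libraries from unmated, untreated females in estrus, which are numbered 1, 2 and 4. INT holds 4 libraries from females mated with intact Balb/c males and collected on day 3.5 pc (post coitum). SVX, SVX_VAS and VAS hold 4 libraries each, also of day 3.5 pc, from females whose Balb/c partners had undergone surgery. The labels name different surgeries for these last groups in different fields, so each is called by its column name and carries no surgery name here. A library is written as its group and replicate, so that INT.3 is replicate 3 of INT.

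Retinol circulates bound to the retinol binding protein Rbp4, which itself rides on transthyretin (Ttr), and it enters cells through the membrane receptor Stra6. Inside the cell, retinol is oxidised reversibly to retinal, largely by Rdh10, and retinal is oxidised irreversibly to retinoic acid by the retinal dehydrogenases Aldh1a1, Aldh1a2 and Aldh1a3. Crabp2 hands retinoic acid to nuclear receptors of the RAR family, and Cyp26a1 hydroxylates it for removal. In the uterus, retinoic acid made in the stroma is known to take part in decidualization, and Crabp2 and Cyp26a1 are known as epithelial genes under ovarian hormone control. The comparison of the mated groups with CONT asks how these genes differ between a cycling and a near-receptive endometrium, and the comparison among the mated groups asks whether the male matters. Estrus and day 3.5 pc differ in hormonal stage and in mating together. Per the study's methods they also differ in time of day, with estrus tissue taken late in the evening and mated mice killed at noon. These differences cannot be told apart here.

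The libraries held 12661266 to 31781270 counts on genes, and 3 counts, the limit that a count of 0 allows, stood for 0.108 to 0.236 CPM. This limit covers counting error only. The number of mice in a pool is not given in the sources used here, so the errors and p-values measure the spread between pools. Endometrial markers were present in every library, with the summed stroma markers at 4120 to 7019 CPM in 17 libraries and at 1413 and 1572 CPM in VAS.2 and VAS.3. The summed epithelium markers were at 3273 to 4462 CPM in CONT and at 484 to 2301 CPM in the mated libraries. Ltf, the estrogen-induced lactotransferrin of the luminal epithelium, was at 1875 to 2848 CPM in CONT, and INT.1 (2157 CPM) and SVX_VAS.2 (2301 CPM) lay within that range while the other 14 mated libraries were at 713 CPM or less. These 4 libraries are named below where a result rests on them.

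Each mated group was compared with CONT by edgeR's quasi-likelihood test, with a gene called at a Benjamini-Hochberg FDR of 0.05 or less over all 17222 genes tested and a change of at least 1.5-fold. In INT, 4 of the 8 tested retinoid genes were called, beside 33.6% of all genes tested. Ttr, Stra6 and Cyp26a1 were higher there, beside 20.9% of all genes, and Aldh1a2 was lower, beside 12.7%. In SVX, 5 of 8 were called beside 41.5% of all genes, with Ttr, Stra6 and Cyp26a1 higher (23.1% of all genes) and Crabp2 and Aldh1a2 lower (18.4%). In SVX_VAS, 4 of 8 were called beside 38.5%, namely Ttr and Stra6 higher (22.1% of all genes) and Crabp2 and Aldh1a2 lower (16.4%). In VAS, 6 of 8 were called beside 40.4%, namely Ttr, Stra6, Cyp26a1 and Aldh1a3 higher (23.2% of all genes) and Rdh10 and Aldh1a2 lower (17.2%). Without VAS.2 and VAS.3 the count in VAS was 4, since Rdh10 and Aldh1a2 were no longer called. The 4 comparisons share the same 3 CONT libraries, so their counts are not independent. Ttr, Cyp26a1 and Aldh1a3 were at most at 0.119, 1.36 and 1.90 CPM in CONT. They reached the level for testing only through mated libraries, so their rises in these counts are descriptions and no test of the list. Complete separation of the libraries from CONT was seen for 5 of the 8 genes in INT (62.3% of all genes tested), 6 in SVX (70.9%), 6 in SVX_VAS (67.5%) and 6 in VAS (55.0%), so separation was frequent over all genes too. The median logFC of the 8 genes was 0.45 in INT, 0.73 in SVX, 0.13 in SVX_VAS and 1.77 in VAS, and that of all genes tested was -0.01, -0.01, -0.02 and -0.07. The VAS median lay between Aldh1a1 (logFC 0.42) and Aldh1a3 (logFC 3.12), both highest in VAS.1. Without VAS.1 the Aldh1a3 logFC was 1.06, so that median leaned on this library. In these bulk samples, fewer cells of a type and less RNA per cell cannot be told apart.

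**Figure D1:**
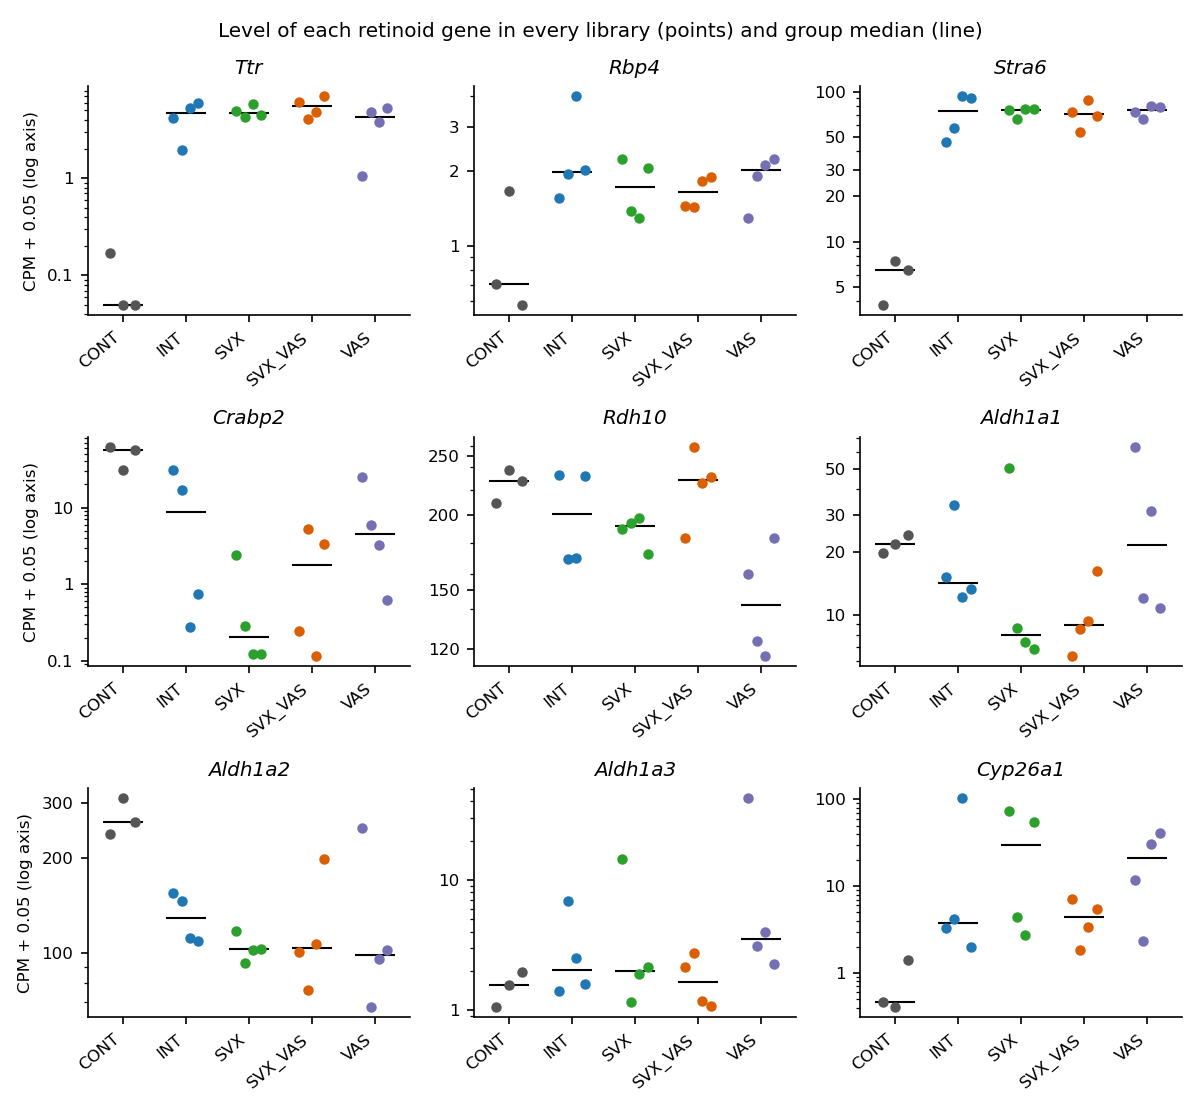
Level of each of the 9 retinoid genes in every library, as CPM plus 0.05 on a log axis (the 0.05 lets a value of 0 be drawn), with a point per library and a line at the group median. Ttr and Stra6 lie higher in all 16 mated libraries than in CONT, while Crabp2 and Cyp26a1 spread widely among the mated libraries.

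Ttr, the thyroid hormone and Rbp4 carrier (ENSMUSG00000061808.3, GRCm38 chr18:20665250-20674324, plus strand), was close to absent in estrus and present in every mated library. It had 2, 0 and 0 counts in CONT.1, CONT.2 and CONT.4, which is 0.119, 0 and 0 CPM. In replicates 1 to 4 it was at 4.08, 1.89, 5.30 and 5.95 CPM in INT, 4.83, 4.25, 5.70 and 4.44 in SVX, 6.09, 4.05, 4.81 and 6.91 in SVX_VAS, and 1.01, 4.71, 3.76 and 5.22 in VAS. VAS.1 and INT.2 were the lowest mated libraries, and no mated library overlapped CONT. Set against the floor of 3 counts in CONT.4, the CONT library with the highest floor (0.227 CPM), the mean was at least 18.9-fold higher in INT, 21.1-fold in SVX, 24.0-fold in SVX_VAS and 16.2-fold in VAS. The edgeR FDR was 1.27e-05, 6.07e-06, 6.45e-06 and 1.21e-05 in that order. The fitted logFC (6.64, 6.80, 6.98 and 6.41) depend on how a count near 0 is treated and moved between 5.88 and 9.15 in INT when single libraries were left out. Ttr is best known as a liver gene, and the summed liver markers were at 0.610 to 1.01 CPM in CONT and 0.169 to 1.41 CPM in the mated libraries, with Alb at 0.157 CPM or less in every library. Blastocyst markers were also looked at, since Ttr is made by early endoderm. Cdx2 (at most 0.0716 CPM), Pou5f1 (at most 0.0731 CPM) and Afp (at most 0.280 CPM) were near 0, while Eomes was at 0.892 to 2.55 CPM in CONT and 2.76 to 7.60 CPM in the mated libraries. Among the 16 mated libraries Ttr had a Pearson r of 0.78 and a Spearman's rho of 0.40 with the gland transcription factor Foxa2, which VAS.1 and INT.2 also held at the lowest levels (7.50 and 8.89 CPM). Its r with the gland proteases Prss28 and Prss29 was 0.20 each (rho 0.12 and 0.08), so the gland markers differed in this.

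Rbp4, its cargo protein (ENSMUSG00000024990.12, chr19:38116620-38125321, minus strand), was low in every group. It was at 0.654, 1.62 and 0.531 CPM in CONT. It was at 1.51, 1.89, 3.94 and 1.96 CPM in INT, 2.18, 1.34, 1.24 and 2.01 in SVX, 1.40, 1.39, 1.78 and 1.84 in SVX_VAS, and 1.24, 1.87, 2.07 and 2.19 in VAS. CONT.2 overlapped the mated libraries, and INT.3 was the highest of all. Without the filter on low counts, edgeR called Rbp4 in INT (logFC 1.24, SE 0.40, FDR 0.0305) and not in SVX (FDR 0.177), SVX_VAS (FDR 0.235) or VAS (FDR 0.117). Fat, which the study's methods describe as dissected away from the uterus, makes Rbp4, and the summed fat markers were at 1.48 CPM in INT.3 and at 0.315 CPM or less elsewhere, with Adipoq at 0.684 CPM in INT.3. Their part in the Rbp4 value was not tested.

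Stra6, the cell surface receptor through which retinol leaves Rbp4 (ENSMUSG00000032327.14, chr9:58063788-58153996, plus strand), rose by a like amount in all mated groups. It was at 3.75, 7.32 and 6.37 CPM in CONT. It was at 46.3, 57.3, 92.7 and 90.7 CPM in INT, 75.2, 65.2, 76.3 and 76.7 in SVX, 72.5, 53.7, 87.9 and 68.6 in SVX_VAS, and 72.5, 65.3, 80.1 and 78.8 in VAS. The lowest mated library, INT.1, stood well above the highest of CONT. Group means were 5.81 ± 1.85 CPM in CONT (SD, n = 3 libraries), 71.7 ± 23.5 in INT, 73.3 ± 5.47 in SVX, 70.7 ± 14.1 in SVX_VAS and 74.2 ± 6.79 in VAS (n = 4 each). The logFC against CONT was 3.62, 3.65, 3.59 and 3.66, each with an SE of 0.28 (edgeR FDR 8.38e-07, 4.20e-07, 4.96e-07 and 6.26e-07). Leaving out single libraries kept the logFC in INT between 3.38 and 3.83. INT.1 and SVX_VAS.2, in which Ltf was at estrus levels, held the lowest Stra6 among the mated libraries, and over those 16 libraries Stra6 and Ltf had a Pearson r of -0.76 (rho -0.62).

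**Figure D2:**
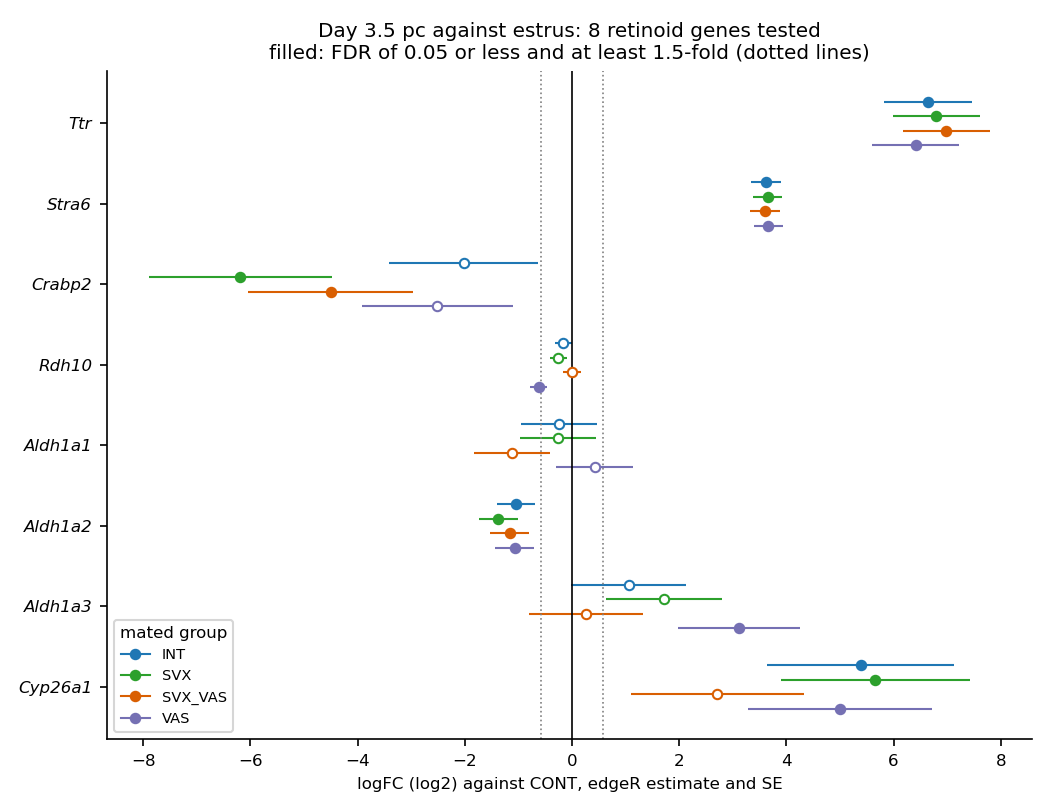
edgeR logFC (log2) of the 8 tested retinoid genes in each mated group against CONT, with bars of 1 SE and filled points for genes called. Stra6 lies between 3.59 and 3.66 in all 4 groups, whereas Crabp2 runs from -6.19 to -2.02 and is called in SVX and SVX_VAS.

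Crabp2, which passes retinoic acid to the nuclear receptors (ENSMUSG00000004885.5, chr3:87948666-87953376, plus strand), was lower in every mated library than in any CONT library, by amounts that ranged from slight to near total loss. It was at 60.9, 31.0 and 56.3 CPM in CONT. It was at 30.9, 16.8, 0.228 and 0.700 CPM in INT, 2.34, 0.236, 0.0731 and 0.0716 in SVX, 0.193, 5.16, 0.0659 and 3.31 in SVX_VAS, and 24.9, 5.83, 3.20 and 0.565 in VAS. INT.1 lay just under CONT.2, whereas 3 of the 4 SVX libraries had 3 or fewer counts. Crabp2 fell in SVX (logFC -6.19, SE 1.71, FDR 0.00544) and in SVX_VAS (logFC -4.50, SE 1.54, FDR 0.0209). It was not called in INT (logFC -2.02, SE 1.39, FDR 0.250) or in VAS (logFC -2.52, SE 1.41, FDR 0.138). With single libraries left out, the SVX logFC moved between -8.55 and -5.80 and the gene was still called. The SVX_VAS call was lost without SVX_VAS.1 (logFC -4.11, FDR 0.0538) or SVX_VAS.3 (logFC -4.10, FDR 0.0521), and without VAS.1 the gene was called in VAS (logFC -3.93, FDR 0.0404). limma-voom, run on log2 values, called it in INT (logFC -4.12, FDR 0.00532) and VAS (logFC -3.35, FDR 0.00320) and not in SVX (logFC -7.35, FDR 0.0983).

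The Crabp2 level followed the epithelial estrogen response within the mated groups. In INT, Ltf was at 2157, 643, 27.4 and 45.3 CPM in replicates 1 to 4, the same split into high and low libraries as Crabp2. Over the 16 mated libraries the Pearson r between their log2 CPM was 0.94 (rho 0.93), and it was 0.95 after the group means were taken out. SVX_VAS.2 departed from the relation, with Ltf at 2301 CPM and Crabp2 at 5.16 CPM. Crabp2 also had an r of 0.94 (rho 0.81) with Dhrs9, a retinol dehydrogenase of epithelia, and of 0.74 (rho 0.49) with the epithelial adhesion protein Epcam. All points come from bulk libraries that differ together in epithelial and estrogen-response genes, and these correlations are descriptions of them. The part of the epithelial share in the Crabp2 difference was not tested.

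**Figure D3:**
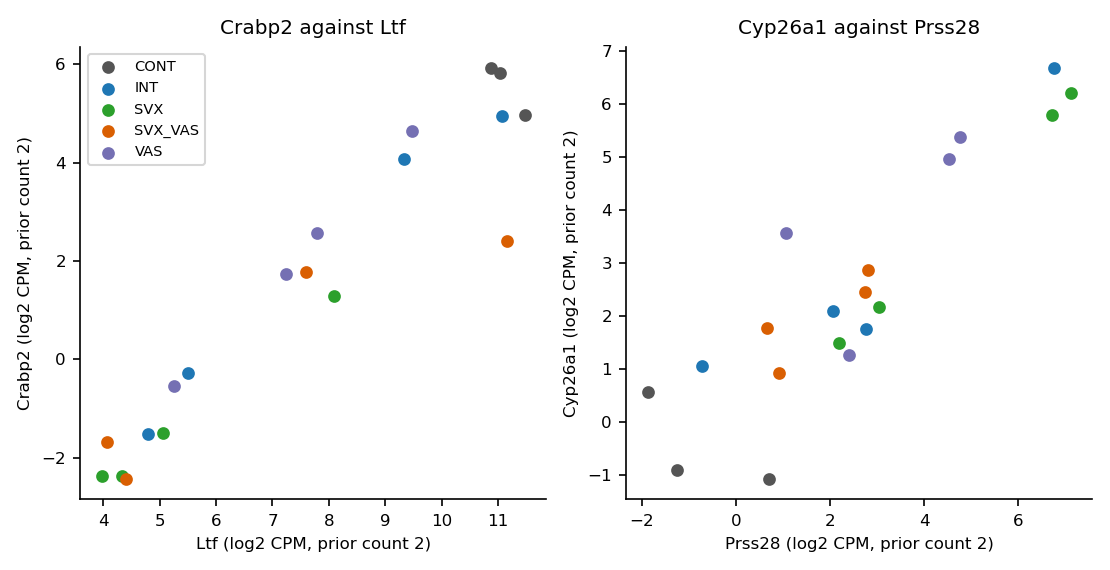
Left, Crabp2 against the estrogen-induced Ltf, and right, Cyp26a1 against the gland protease Prss28, as log2 CPM with a point for each of the 19 libraries coloured by group. Over the 16 mated libraries the Pearson r is 0.94 on the left and 0.89 on the right.

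Rdh10, the retinol dehydrogenase of the first oxidation step (ENSMUSG00000025921.7, chr1:16105774-16133734, plus strand), was abundant throughout. It was at 209, 237 and 228 CPM in CONT. It was at 233, 169, 170 and 232 CPM in INT, 189, 194, 197 and 172 in SVX, 183, 259, 226 and 232 in SVX_VAS, and 160, 124, 117 and 183 in VAS. INT and SVX_VAS overlapped CONT, and SVX and VAS lay below it. Rdh10 fell in VAS (logFC -0.62, SE 0.16, FDR 0.00359), and its logFC was -0.16 in INT (FDR 0.445), -0.26 in SVX (FDR 0.191) and 0.00 in SVX_VAS (FDR 0.999). The VAS call rested on VAS.2 and VAS.3, the libraries lowest in stroma markers. They also had the highest factors scaling library size (TMM), at 1.29 and 1.33 beside 0.846 to 1.02 in the others. A higher factor lowers every CPM of a library. The call was kept with DESeq2 size factors in edgeR, and the part of the scaling was not tested otherwise. Without VAS.2 the logFC was -0.52 and without VAS.3 -0.50, both under 1.5-fold, and without both it was -0.39 (FDR 0.0525). Over the mated libraries Rdh10 had a Pearson r of 0.74 and a Spearman's rho of 0.29 with the stroma proteoglycan gene Dcn, and the part of the stroma share in this result was not tested.

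Aldh1a2, the retinal dehydrogenase known from uterine stroma (ENSMUSG00000013584.5, chr9:71215789-71296243, plus strand), fell in all 4 mated groups. It was at 239, 310 and 261 CPM in CONT. It was at 155, 146, 112 and 109 CPM in INT, 118, 93.1, 102 and 103 in SVX, 101, 76.5, 107 and 199 in SVX_VAS, and 249, 67.4, 95.7 and 102 in VAS. 15 mated libraries lay below CONT, and VAS.1 lay inside its range. The logFC was -1.05 in INT (FDR 0.0237), -1.38 in SVX (FDR 0.00380), -1.16 in SVX_VAS (FDR 0.0121) and -1.07 in VAS (FDR 0.0179), each with an SE of 0.36. The INT call was lost without CONT.2 (FDR 0.0749), INT.3 (FDR 0.0515) or INT.4 (FDR 0.0632), at logFC of -0.94, -1.02 and -0.97. The VAS call was lost without CONT.2 (FDR 0.0591), VAS.2 (FDR 0.0558) or VAS.3 (FDR 0.0595), at logFC of -0.96, -0.83 and -0.92. Without VAS.2 and VAS.3 together the logFC was -0.62 (FDR 0.164).

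Aldh1a1, which also oxidises other aldehydes (ENSMUSG00000053279.6, chr19:20601961-20643462, plus strand), was called in no mated group. It was at 19.7, 21.9 and 24.2 CPM in CONT. It was at 15.1, 33.3, 12.1 and 13.2 CPM in INT, 50.5, 8.57, 7.39 and 6.81 in SVX, 6.33, 8.54, 9.30 and 16.2 in SVX_VAS, and 63.2, 12.0, 31.3 and 10.7 in VAS. Every SVX_VAS library lay below CONT, and in each of the other mated groups 1 or 2 libraries lay above it and the rest below. The logFC was -0.25 in INT (FDR 0.812), -0.26 in SVX (FDR 0.786), -1.12 in SVX_VAS (FDR 0.196) and 0.42 in VAS (FDR 0.624). SVX.1 decided the SVX value, since without it the gene was called lower (logFC -1.53, FDR 0.0353). Aldh1a7, a neighbour 49.5 kb away on the opposite strand with 91.7% identical coding sequence, shares 10.4% of the 50-base windows of the Aldh1a1 coding sequence, so some reads could be assigned to either gene. Aldh1a7 rose in all 4 mated groups (logFC 1.67, 1.53, 2.01 and 1.89, FDR 0.00707, 0.00938, 0.00178 and 0.00253) from 1.08 to 1.36 CPM in CONT.

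Aldh1a3, the retinal dehydrogenase of many epithelia (ENSMUSG00000015134.15, chr7:66390890-66427517, minus strand), was low in most libraries and high in a few. It was at 1.01, 1.51 and 1.90 CPM in CONT. It was at 1.36, 6.81, 2.45 and 1.54 CPM in INT, 14.4, 1.10, 1.83 and 2.08 in SVX, 2.08, 2.72, 1.12 and 1.03 in SVX_VAS, and 42.2, 3.03, 3.95 and 2.19 in VAS. INT.2, SVX.1 and VAS.1 were the high libraries, and the same 3 libraries were the highest of their groups in Aldh1a1. The logFC was 1.05 in INT (FDR 0.450), 1.72 in SVX (FDR 0.192), 0.25 in SVX_VAS (FDR 0.868) and 3.12 in VAS (SE 1.14, FDR 0.0278). The VAS call rested on VAS.1, without which the logFC was 1.06 (FDR 0.275). It was also lost, at a similar logFC, without CONT.1 (logFC 2.91, FDR 0.0925), CONT.2 (logFC 3.14, FDR 0.0734) or CONT.4 (logFC 3.33, FDR 0.0597). limma-voom did not call the gene there either (logFC 2.02, FDR 0.157). Over the 16 mated libraries the Pearson r of Aldh1a3 with Aldh1a1 was 0.82 and Spearman's rho 0.46. Coding sequence of Aldh1a1 was 67.3% identical to that of Aldh1a3 and 68.0% to that of Aldh1a2, with no shared 50-base window.

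The 3 retinal dehydrogenases were added per kb of exon to show their combined transcript level. In CONT the sum was 115 to 148 CPM per kb, with a mean of 130 ± 16.5 (SD, n = 3). The mean was 67.3 ± 13.9 in INT, 56.0 ± 15.9 in SVX, 58.6 ± 25.5 in SVX_VAS and 73.8 ± 51.6 in VAS (n = 4 each). The sum in VAS.1 (150 CPM per kb) was above all CONT libraries, and the other 15 mated libraries lay below them. Aldh1a2 made up 90.4 to 92.6% of the sum in CONT, and its lowest shares were 65.2% in SVX.1, 72.4% in VAS.3, 73.4% in VAS.1 and 78.4% in INT.2. These sums describe transcripts and not enzyme activity.

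**Figure D4:**
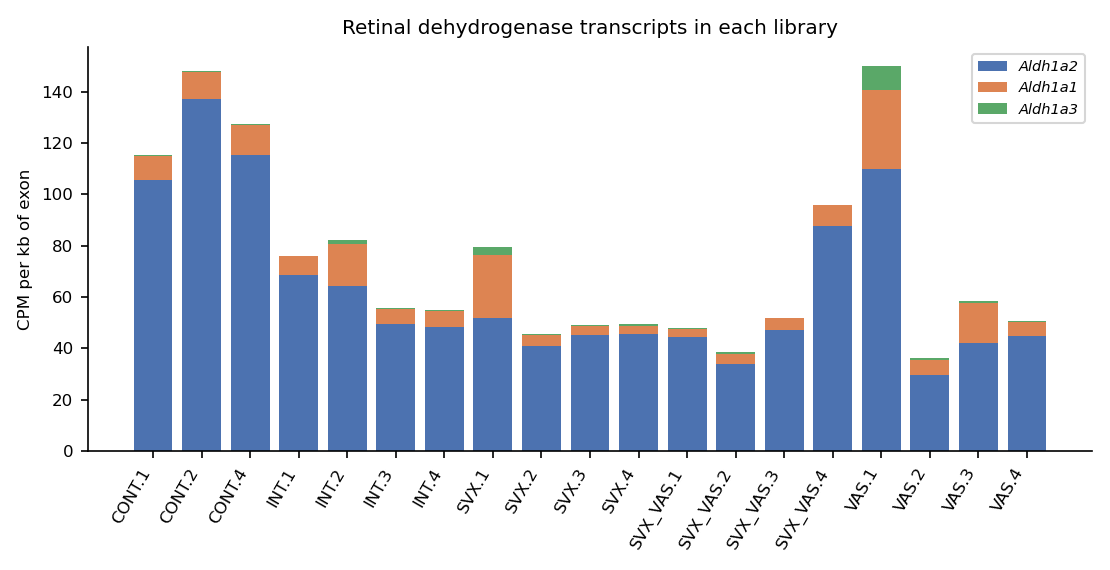
Levels of Aldh1a2, Aldh1a1 and Aldh1a3 in each library, as CPM per kb of exon stacked to their sum. The sum is 115 to 148 in CONT and lower in 15 of the 16 mated libraries, VAS.1 being the exception at 150.

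Cyp26a1, the cytochrome P450 that hydroxylates retinoic acid (ENSMUSG00000024987.5, chr19:37697808-37701528, plus strand), was higher in every mated library than in any CONT library, but its level spread widely. It was at 0.416, 0.359 and 1.36 CPM in CONT. It was at 3.25, 4.16, 103 and 1.96 CPM in INT, 73.9, 4.40, 2.71 and 55.1 in SVX, 7.15, 1.77, 3.30 and 5.37 in SVX_VAS, and 11.7, 2.29, 30.9 and 41.2 in VAS. INT.3, SVX.1, SVX.4, VAS.3 and VAS.4 were above 30 CPM, while no SVX_VAS library passed 7.15 CPM. Cyp26a1 rose in INT (logFC 5.38, SE 1.74, FDR 0.0176), SVX (logFC 5.66, SE 1.76, FDR 0.0114) and VAS (logFC 5.0, SE 1.71, FDR 0.0204), and its logFC in SVX_VAS was 2.71 (SE 1.62, FDR 0.171). The INT call rested on INT.3, without which the logFC was 2.18 (FDR 0.178), and it was also lost without CONT.1 (FDR 0.0678) or CONT.2 (FDR 0.0660). The VAS call was lost without CONT.1 (FDR 0.0721) or CONT.2 (FDR 0.0728). limma-voom called the gene in none of these 3 groups (logFC 3.93, 4.81 and 4.57, FDR 0.462, 0.340 and 0.335). SVX_VAS against INT was not called, and SVX_VAS was not tested against SVX or VAS.

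The libraries with high Cyp26a1 were largely those with high Prss28, a serine protease of the uterine glands that progesterone is known to induce. Prss28 was at 108 CPM in INT.3 against 0.490 to 6.66 CPM in the other INT libraries. It was at 139 and 106 CPM in SVX.1 and SVX.4 against 4.46 and 8.10 in the other SVX libraries, and at 23.0 and 26.9 CPM in VAS.3 and VAS.4 against 1.97 and 5.18. In each of the 3 groups the libraries above 30 CPM for Cyp26a1 were the highest for Prss28. Over the 16 mated libraries the Pearson r of Cyp26a1 with Prss28 was 0.89 (Spearman's rho 0.82, and r 0.90 after the group means were taken out), and it was 0.92 with Atp6v0d2, a subunit of the vacuolar proton pump. With Prss29, from the same gland list, r was 0.88 (rho 0.74), whereas with Foxa2, also of that list, it was -0.04 (rho -0.24). Against CONT, 3, 4, 2 and 3 of the 4 gland markers were called higher in INT, SVX, SVX_VAS and VAS, and their sum was at 4.16 to 14.3 CPM in CONT and 37.5 to 414 CPM in the mated libraries. The part of gland-derived RNA in the Cyp26a1 level was not tested.

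Cyp26a1 is itself a textbook target of retinoic acid, through a pair of direct repeats spaced by 5 bases (DR5) that bind RAR with RXR, as is the receptor gene Rarb. The DR5 motif was searched on both strands in RefSeq promoters of GRCm38.p6, each running from 250 bases before to 50 after a transcript start, as a pair of hexamers in the same direction with any 5 bases between, each hexamer being AGGTCA with G also allowed at position 1 and T at position 3. It was found in 32 of 32851 promoters (0.0974%), and those of Cyp26a1 and Rarb are shown because they hold it. The 120 bases before each start are printed on the gene's own strand, with the match in capitals, at chr19:37697688-37697807 for Cyp26a1 and at chr14:16575477-16575596 (minus strand) for Rarb.
Cyp26a1: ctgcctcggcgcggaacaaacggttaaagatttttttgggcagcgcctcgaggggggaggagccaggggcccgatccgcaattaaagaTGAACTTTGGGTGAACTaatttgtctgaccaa
Rarb: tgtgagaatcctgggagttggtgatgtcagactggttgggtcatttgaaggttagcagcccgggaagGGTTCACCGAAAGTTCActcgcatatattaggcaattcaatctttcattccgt
The Cyp26a1 match reads on the opposite strand to the gene and covers positions -32 to -16, and the Rarb match reads along the gene and covers positions -53 to -37, both counted from the first transcribed base. No match to DR5, or to the related DR2 and DR1 pairs (found in 0.268% and 0.222% of promoters), was held by the promoters of Rbp4, Stra6, Aldh1a1 or Aldh1a2. The table used here matched no promoter of Ttr, Crabp2, Rdh10 or Aldh1a3. Of the 31 genes with a DR5 match, 5 were tested and 4 were called higher in INT against CONT, beside 20.9% of all genes tested, and these were Cyp26a1, Rarb, Tnfsf13b and Gm14133. Cyp26a1 and Rarb were known targets before the search. Cyp26a1, at most 1.36 CPM in CONT, reached the level for testing only through mated libraries, and its INT call rested on INT.3. The count is therefore a description and no test of genes with a DR5 match. A match is a run of letters in this window and not a measured binding site.

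Among the mated groups, no retinoid gene passed the FDR over all genes tested in edgeR. In SVX, SVX_VAS and VAS against INT, 0 of the 8 genes were called, beside 0% of all genes tested, and 0 were called in a joint test of the 4 mated groups (0% of all genes). limma-voom also called 0 of the 8 in each of these tests, although of all 17222 genes it called 0 in SVX, 0 in SVX_VAS, 1661 in VAS and 1396 in the joint test. DESeq2 called none of the members for which it gave an adjusted p (it gave none for Aldh1a3 in the pairwise tests), and 3, 2, 0 and 21 of all genes in the same order. At an unadjusted p under 0.05, edgeR listed 1 in SVX (Crabp2, logFC -4.16), 0 in SVX_VAS, 2 in VAS (Rdh10, logFC -0.46, and Aldh1a3) and 2 in the joint test (Rdh10 and Aldh1a3), beside 749, 339, 1831 and 1213 of all 17222 genes. Intervals of 2 SE around the logFC, not adjusted for the number of genes, show the precision of these tests. For Stra6 they ran from -0.40 to 0.47 in SVX, from -0.46 to 0.41 in SVX_VAS and from -0.39 to 0.48 in VAS, so that a difference from INT of 1.5-fold was outside each interval. They did not include 0 for Crabp2 in SVX (-7.32 to -1.01), Cyp26a1 in SVX_VAS (-5.26 to -0.08), Rdh10 in VAS (-0.76 to -0.16) and Aldh1a3 in VAS (0.14 to 4.0). None of these passed the FDR over all genes (0.452 or higher), and for Cyp26a1 in SVX_VAS the unadjusted edgeR p was 0.0556. An interval of 2 SE is thus a little narrower than the limit of that test at 0.05. With single libraries left out, the Cyp26a1 logFC in SVX_VAS against INT ranged from -3.06 to 0.51, so its direction turned. That of Aldh1a3 in VAS ranged from 0.008 to 2.83. Those of Crabp2 in SVX (-6.52 to -3.13) and Rdh10 in VAS (-0.59 to -0.37) stayed below 0. For Cyp26a1 in SVX and VAS the intervals ran from -2.12 to 2.68 and from -2.79 to 2.02, wide enough to hold differences of several fold in either direction.

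The order of the genes by level was compared per kb of exon, as group means of CPM per kb. In CONT, Aldh1a2 came first (119), then Rdh10 (54.0), Crabp2 (37.4), Aldh1a1 (10.7), Stra6 (0.997), Rbp4 (0.720), Cyp26a1 (0.402), Aldh1a3 (0.319) and Ttr (0.0325). Over the 16 mated libraries the pooled order was Aldh1a2 (53.4), Rdh10 (45.7), Stra6 (12.4), Cyp26a1 (12.4), Aldh1a1 (9.27), Crabp2 (4.47), Ttr (3.74), Rbp4 (1.44) and Aldh1a3 (1.22). Group means departed from it. Crabp2 was below Ttr in SVX (0.514 against 3.94) and SVX_VAS (1.65 against 4.48), and above it in INT (9.21 against 3.53) and VAS (6.52 against 3.02). Rdh10 was above Aldh1a2 in SVX_VAS (54.0 against 53.3) and below it in the other mated groups. The dehydrogenases Aldh1a2 and Rdh10 led in CONT and in the pooled order. Stra6, below Aldh1a1 in CONT, was above it in the means of INT, SVX and SVX_VAS but not in that of VAS (12.7 against 14.3 CPM per kb). The VAS mean of Aldh1a1 leaned on VAS.1 (30.8 CPM per kb), beside 5.23 to 15.3 in the other VAS libraries. The mean of Cyp26a1 was above that of Aldh1a1 in INT (15.8 against 8.98 CPM per kb) and SVX (19.2 against 8.93). It was below it in SVX_VAS (2.48 against 4.91) and VAS (12.2 against 14.3). Its place in INT rested on INT.3 (57.8 CPM per kb). The other INT libraries held Cyp26a1 at 1.11 to 2.35 CPM per kb and Aldh1a1 at 6.45 to 16.2. In VAS.3 (17.5 against 15.3) and VAS.4 (23.3 against 5.23) Cyp26a1 was the higher, and in VAS.1 (6.61 against 30.8) and VAS.2 (1.29 against 5.84) Aldh1a1 was. In CONT the ranges of neighbours in this order did not overlap, except between Stra6 and Rbp4, Rbp4 and Cyp26a1, and Cyp26a1 and Aldh1a3. In the mated libraries all neighbours overlapped except Rdh10 and Stra6, and 5 libraries held most of the Cyp26a1 mean.

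For each retinoid gene, the 3 tested protein-coding genes with the highest Pearson r of log2 CPM over the 19 libraries were listed. Those of Ttr were the hyaluronan synthase Has2, Cyp3a59 and the actin-severing protein Scin (r 0.98 each), and those of Stra6 were Golim4, Tmem132c and Gap43 (0.99 each). Those of Crabp2 were Sh2d4a, the laminin chain Lamb3 and Plch1 (0.98 each), and those of Aldh1a2 were the protease Htra1 (0.98), the inositol synthase Isyna1 (0.96) and Jagn1 (0.95). Those of Cyp26a1 were Atp6v0d2 (0.95), Prss28 (0.89) and the lipase Lipg (0.89), and those of Rdh10 were B4galt1 (0.93), Ist1 (0.91) and Gde1 (0.90). For Aldh1a1 the highest were Cdh4, Map3k21 and Cdh16 (0.90, 0.90 and 0.89), for Aldh1a3 Bpifb5, Rnf168 and Kcna2 (0.85, 0.84 and 0.82) and for Rbp4 Samd5, Phlda3 and Kirrel (0.86 each). These correlations span the difference between CONT and the mated libraries, and the lists over the 16 mated libraries alone were partly other genes. Those of Stra6 (Flywch1, Smarcd1 and Zdhhc8, r 0.91 each), Rbp4 and Aldh1a3 shared no gene with the lists above, while the other 6 members kept at least 1, such as Has2 for Ttr (r 0.90).

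The rest of the pathway was covered by 57 other genes, of which 38 were tested. In INT 20 of the 38 were called (13 higher, 7 lower), in SVX 25 (13 higher, 12 lower), in SVX_VAS 24 (13 higher, 11 lower) and in VAS 21 (12 higher, 9 lower), against the same shares of all genes as above. Their median logFC was -0.01, 0.03, -0.04 and -0.04. Against INT, edgeR called 0 of the 38 in SVX, SVX_VAS and VAS, with 3, 1 and 2 at an unadjusted p under 0.05, beside the 749, 339 and 1831 of all genes. DESeq2 and limma-voom also called 0 of the 38, and in VAS this stands beside the 1661 of all genes that limma-voom called.

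**Figure D5:**
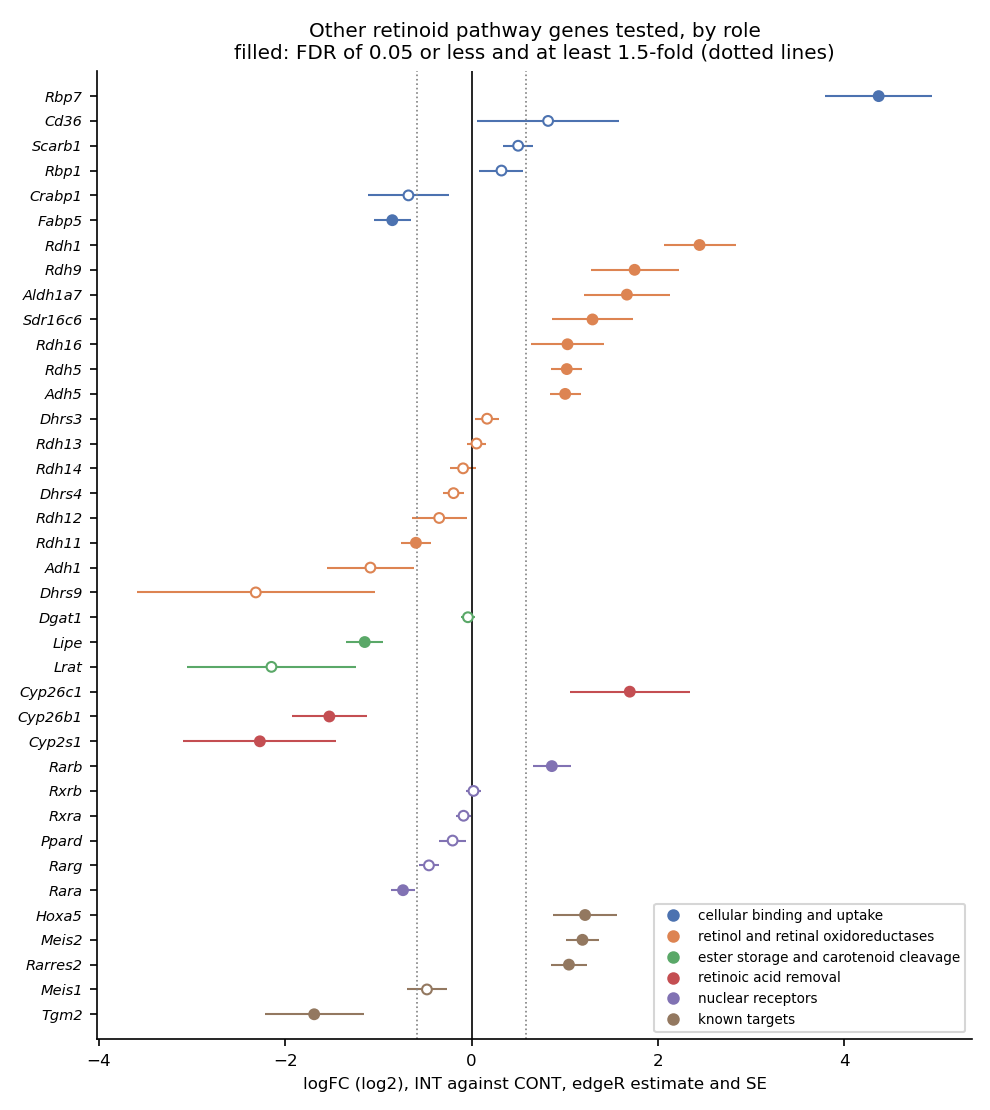
edgeR logFC (log2) of the 38 other retinoid pathway genes tested in INT against CONT, coloured by role, with bars of 1 SE and filled points for genes called. Rbp7 is the highest at 4.37, 7 of the 15 oxidoreductases are called higher, and Rarb and Rara are called in opposite directions.

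In INT, 20.9% of all genes tested were called higher and 12.7% lower, which is the background for the counts by role. In cellular binding and uptake, 1 of 6 tested genes was higher and 1 lower in INT. Rbp7, a cellular retinol binding protein, rose from 0.0594, 0.287 and 0.152 CPM in CONT to 2.71 to 5.13 CPM in INT (logFC 4.37, FDR 2.31e-05), and was called higher in the other mated groups too (logFC 4.18, 4.11 and 4.05). Endothelium markers moved the same way, with 4 of 4 called higher in every mated group and their sum at 103 to 160 CPM in CONT and 339 to 728 CPM in the mated libraries, and their part in the Rbp7 difference was not tested. Fabp5, which can carry retinoic acid to Ppard, fell by 0.85 on the log2 scale (FDR 0.00231). Among the retinol and retinal oxidoreductases, 7 of 15 were higher and 1 lower. Rdh1 (logFC 2.45, FDR 0.000101) and Rdh9 (logFC 1.75, FDR 0.00601), which oxidise retinol, rose, and Rdh11, which reduces retinal, fell (logFC -0.60, FDR 0.00667). The epithelial Dhrs9 had a logFC of -2.32 (FDR 0.148), with 138 and 105 CPM in INT.1 and INT.2 against 3.54 and 1.68 in INT.3 and INT.4, the same split as Crabp2.

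In ester storage, 1 of 3 tested genes was lower in INT and none was higher. This was the hormone-sensitive lipase Lipe (logFC -1.15, FDR 0.000224), and Lrat, which esterifies retinol for storage, had a logFC of -2.15 (FDR 0.0610) in INT and was called lower in SVX, SVX_VAS and VAS (logFC -2.86, -3.12 and -2.73). All 3 other genes of retinoic acid removal were called in INT, in differing directions. Cyp26c1 was higher (logFC 1.70, FDR 0.0398) but was not called in SVX (logFC 1.31, FDR 0.0954), SVX_VAS (logFC 1.08, FDR 0.170) or VAS (logFC 0.84, FDR 0.271), and Cyp26b1 (logFC -1.53, FDR 0.00495) and Cyp2s1 (logFC -2.27, FDR 0.0309) were lower in INT. Cyp26b1 was at 18.8, 21.2 and 15.3 CPM in CONT and at 10.7, 4.48, 4.45 and 5.95 CPM in INT, below CONT in all 4 libraries. It was also called lower in SVX, SVX_VAS and VAS (logFC -1.84, -1.59 and -1.19), so that it and Cyp26a1 moved in opposite directions in the INT, SVX and VAS comparisons.

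Of the 6 nuclear receptors tested, 1 was higher and 1 lower in INT. Rarb was at 4.58, 5.31 and 5.53 CPM in CONT and at 9.68, 9.20, 9.24 and 9.24 CPM in INT, and it rose in INT (logFC 0.86, FDR 0.00220), SVX (logFC 1.09) and SVX_VAS (logFC 1.03) but was not called in VAS (logFC 0.54, FDR 0.0302). None of the Rarb exon bases listed in the count table overlapped an exon of another gene in it, and the same held for all 9 members except Ttr, which shared 11 bases (0.902%) with Gm16090 on the opposite strand. Rara fell in INT (logFC -0.74, FDR 0.000316) and in the other mated groups (logFC -1.02, -0.89 and -0.72). Rarg had a logFC of -0.46 (FDR 0.00201), under 1.5-fold, Rxra and Rxrb had values of -0.09 (FDR 0.384) and 0.02 (FDR 0.870), and Rxrg was not tested. Of the 5 known retinoic acid targets tested, 3 were higher and 1 lower. Hoxa5 (logFC 1.22, FDR 0.00745) and Meis2 (logFC 1.19, FDR 5.80e-05) rose, and the transglutaminase Tgm2 fell (logFC -1.69, FDR 0.0150).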

How the data were processed

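Total RNA of 19 pooled endometrial samples was sequenced after a stranded total RNA library kit. Per the paper and the submitters' processing notes, the authors trimmed adapters, aligned reads with STAR to GRCm38 and used featureCounts for counting. Raw counts were deposited by the authors. Members and lists were chosen with earlier results of these data known. Counts were scaled by TMM and tested in edgeR 4.0.16 (R 4.3.3; glmQLFit and glmQLFTest, all 19 libraries in 1 fit), with a minimum of 3 CPM in 3 or more libraries. Calls needed an FDR of 0.05 or less and 1.5-fold. The SE is the logFC divided by the root of F. Log2 CPM used a prior count of 2. Other genes were named when called in INT, up to 2 rises and 2 falls per role, RARs and RXRs by value, and Dhrs9, Lrat, Tnfsf13b and Gm14133 after their values were seen. Alternatives were DESeq2 1.42.0, its size factors, limma-voom (limma 3.58.1), other filters, 2 groups only, a replicate block, no fold cutoff, each library left out, and, chosen after seeing the data, leaving out INT.1 with SVX_VAS.2 and VAS.2 with VAS.3. Symbols, exons and coding sequences came from GENCODE M21. The fit was tested on simulated data. Promoter and coding sequences were read with Python 3.11.15.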

Additional observations from a re-analysis of the deposited data

Results flagged for a closer look

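Within the mated groups of 4 libraries, Dixon's test was applied to 36 sets of values to find single libraries apart from the rest, and it picked 7. Its 5% level would pick about 1.8, but only for normal values in independent sets. The values were CPM and not log2 CPM, and the sets share libraries. The 7 can therefore not be set against 1.8 and are a list for a closer look. SVX.2 was low in Stra6, at 65.2 CPM beside 75.2 to 76.7. SVX.1 was high in 3 genes, with Crabp2 at 2.34 CPM beside 0.0716 to 0.236, Aldh1a1 at 50.5 CPM beside 6.81 to 8.57, and Aldh1a3 at 14.4 CPM beside 1.10 to 2.08. INT.2 was high in Aldh1a1, at 33.3 CPM beside 12.1 to 15.1. VAS.1 was high in Aldh1a3, at 42.2 CPM beside 2.19 to 3.95. INT.3 was high in Cyp26a1, at 103 CPM beside 1.96 to 4.16.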

How the results depend on the processing

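No value changed direction while called under any alternative tried. Members tested in the main fit kept direction and call under DESeq2, its size factors in edgeR, the other filters and no fold cutoff. DESeq2 gave no adjusted p for Aldh1a3 in any pairwise comparison, so its call there was not compared. Rbp4, below the level for testing in the main fit, was called in INT against CONT without the filter on low counts (logFC 1.24, FDR 0.0305). It was also called there with edgeR's own filter, filterByExpr (logFC 1.23, FDR 0.0188). Neither filter called it in any other comparison. limma-voom called 3 members in SVX instead of 5 and did not call Aldh1a3 in VAS (FDR 0.157). With single libraries left out, the members called ranged from 2 to 4 in INT (2 without CONT.2 or INT.3), 5 to 6 in SVX, 3 to 4 in SVX_VAS and 3 to 6 in VAS (3 without CONT.2), and the other pathway genes from 15 to 21, 23 to 26, 22 to 26 and 17 to 22. In VAS against INT the latter ranged from 0 to 1 (1 without VAS.1). Where only the 2 groups compared were fitted, Aldh1a1 (logFC -1.12, FDR 0.0105) and Cyp26a1 (logFC 2.77, FDR 0.00610) were called in SVX_VAS. Aldh1a2 (logFC -1.07, FDR 0.0895) and Aldh1a3 (logFC 3.12, FDR 0.0842) were not called in VAS, at the same logFC as in the main fit. The cause was not tested. Deviations from the group means were correlated between libraries of different groups. Same-numbered libraries had r from -0.69 to 0.58 (median 0.05, over 0.1 in 15 of 36 pairs). Libraries of other numbers had r from -0.75 to 0.77 (median -0.03, over 0.1 in 35 of 108 pairs). With ranges this wide, the values cannot decide whether the numbers pair the samples. With a replicate block Aldh1a3 was not called in VAS (logFC 2.32, FDR 0.0741), and no other member call changed. Leaving out INT.1 and SVX_VAS.2 changed no member call, and 22 other pathway genes were called in INT instead of 20. Depth limits Ttr in CONT and Crabp2 in SVX, which rest on 3 or fewer counts in several libraries.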
